A study of Mus musculus with 22 samples.

Results

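Csprs and the Sp100 nuclear body family were followed as 5 genes, Csprs, Sp100, Sp110, Sp140 and Pml, out of 30170 gene rows. Csprs was chosen by its counts, which were near 0 outside W330R, and the other 4 genes because they belong to the same family or the same nuclear body. Levels of Csprs are therefore given as a description, and only its change from day 2 to day 6 within each genotype was tested. Within WT and the double mutant that test used counts that the choice of Csprs held near 0, so it decides nothing there. Sp100, Sp110, Sp140 and Pml, in contrast, were tested across all genes. The data went against W330R as a whole: undifferentiated W330R cells overlapped undifferentiated WT cells or lay below them for Csprs, Sp100, Sp110 and Sp140, and the high levels belonged to W330R cells on days 2, 4 and 6. In addition, 1 library of the double mutant, W330R-R181E day 6 replicate 1, was raised.

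The RNA came from C3H 10T1/2, mouse mesenchymal stem cells able to become fat cells, in lines made to express forms of DNMT3A1, the long isoform of a de novo DNA methyltransferase. WT and W330R were measured undifferentiated, without treatment, and after 2, 4 and 6 days on the way to adipocytes, whereas W330R-R181E, the double mutant, was measured at the last 3 of these stages. Differentiation was started with isobutylmethylxanthine, dexamethasone, insulin and troglitazone and continued in insulin. Each of the 11 conditions had 2 libraries, 22 in all, with 8859501 to 47453908 counts per library (median 19355792). The labels say neither whether replicates were separate cultures nor how many clones stand behind a genotype, so p-values measure only the spread between these libraries. Column names of the 6 double-mutant libraries read R181A where the labels read R181E, and those of the undifferentiated libraries follow another pattern, so that the step from undifferentiated to day 2 cannot be told apart from a separate batch.

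PML nuclear bodies are protein assemblies in the nucleus built on PML and held together by SUMO, a small protein attached to other proteins. Sp100 is a permanent component of these bodies, and Sp110 and Sp140 are relatives that carry domains for binding DNA and modified histones and are best known from immune cells. Several of these genes respond to interferon. In the mouse, Sp100 lies beside a long repeated array of partial copies, and Csprs is named as a component of that array.

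Csprs was high in 6 libraries. Its level, in CPM (counts scaled to a common library total by TMM), was 17.9 and 7.08 in the replicates of W330R on day 2, 31.6 and 8.003 on day 4, and 16.1 and 7.84 on day 6. Replicate 1 was the higher library on each of these days, by 2.52, 3.94 and 2.06 times. In undifferentiated W330R cells the levels were 0.408 and 0.116 CPM, which stand for 5 counts and 1 count. The 8 WT libraries lay between 0.0492 and 0.356 CPM (median 0.129), with at most 8 counts. WT and undifferentiated W330R thus overlapped.

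In the double mutant, Csprs was at 0.246 and 0 CPM on day 2 and at 0.122 and 0.174 CPM on day 4. On day 6 replicate 1 reached 3.14 CPM, from 135 counts, and replicate 2 was at 0.325 CPM, from 3 counts. Every W330R library of days 2 to 6 stood above every other library, and the lowest of them (7.08 CPM) was above the raised double-mutant library. Of all 14520 genes tested, 83 (0.572%) had every W330R library of days 2 to 6 above every other library. The library at 0 had a limit of 3 counts, and the limit lay between 0.0583 and 0.347 CPM over all libraries.

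**Figure D1:**
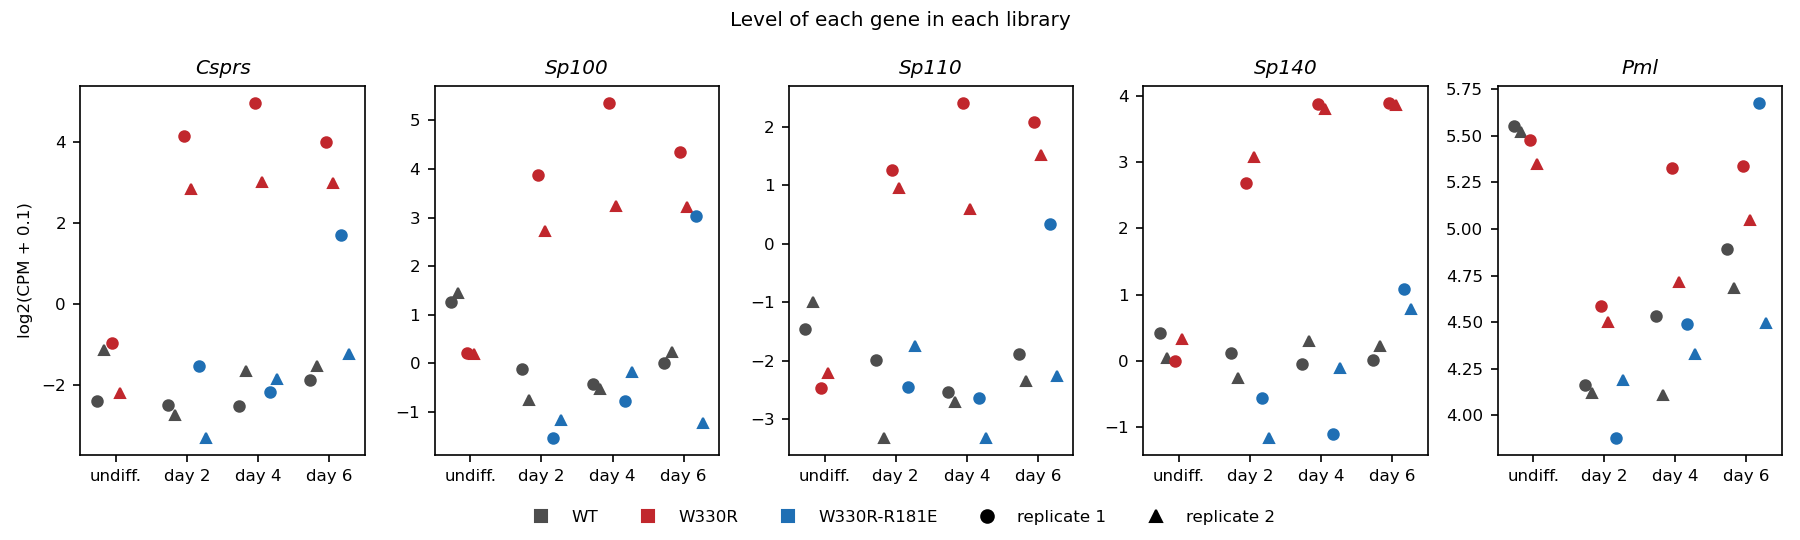
Level of each gene in each of the 22 libraries, as log2(CPM + 0.1) against the stage, with circles for replicate 1 and triangles for replicate 2. Csprs, Sp100, Sp110 and Sp140 are high in W330R (red) on days 2 to 6 and low in undifferentiated W330R, and 1 library of the double mutant (blue) on day 6 lies between.

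Sp100, a core protein of the nuclear body, followed the same layout. W330R had 14.5 and 6.47 CPM on day 2, 41.0 and 9.34 on day 4, and 20.3 and 9.20 on day 6. WT lay between 0.492 and 1.07 CPM on days 2 to 6 and at 2.29 and 2.63 CPM in undifferentiated cells. Undifferentiated W330R was at 1.06 and 1.04 CPM, below both undifferentiated WT libraries. The double mutant lay between 0.246 and 0.783 CPM except for 8.07 CPM in day 6 replicate 1, which overlapped the W330R range. Every W330R library of days 2 to 6 was above every WT library of these days, a pattern that 2.73% of all genes showed.

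Sp110, a relative with chromatin-binding domains, had few counts. W330R had 2.30 and 1.83 CPM on day 2, 5.22 and 1.41 on day 4, and 4.14 and 2.75 on day 6, from 38 to 213 counts. WT had 0 to 3 counts in each library of days 2 to 6, and 3 and 9 counts undifferentiated, against 1 count in either undifferentiated W330R library. The double mutant had 0 to 4 counts, except for 50 counts (1.16 CPM) in day 6 replicate 1. All W330R libraries of days 2 to 6 were above all other libraries, a pattern that 0.572% of all genes showed. Fold changes of Sp110 rest on denominators at or near the limit of 3 counts.

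Sp140, a histone-reading relative, had close replicates in W330R. W330R had 6.31 and 8.34 CPM on day 2, 14.6 and 13.8 on day 4, and 14.8 and 14.5 on day 6. WT lay between 0.738 and 1.23 CPM over all 8 libraries, and undifferentiated W330R at 0.898 and 1.16 CPM. The double mutant lay between 0.347 and 0.826 CPM on days 2 and 4, with 2.02 and 1.62 CPM on day 6. Every W330R library of days 2 to 6 stood above every other library, a pattern that 0.572% of all genes showed. WT overlapped undifferentiated W330R and the double mutant on day 4, and here both day 6 libraries of the double mutant stood above WT. The replicates of W330R had ratios of 0.757, 1.06 and 1.02 on days 2, 4 and 6 for Sp140, in libraries where the ratios for Csprs were 2.52, 3.94 and 2.06.

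Pml, the scaffold of the body, was present in every library, and in WT and W330R its highest levels were in undifferentiated cells. In undifferentiated cells it was at 46.8 and 45.9 CPM in WT and 44.5 and 40.7 in W330R. On days 2 to 6 it lay between 17.2 and 29.6 CPM in WT and between 22.5 and 40.3 in W330R. The double mutant ranged from 14.6 to 22.4 CPM without day 6 replicate 1, which had 51.1 CPM. Over these days together the 3 genotypes overlapped. Day by day, both W330R libraries stood above both WT libraries. They had 23.9 and 22.5 CPM against 17.8 and 17.3 on day 2, and 40.1 and 26.2 against 23.0 and 17.2 on day 4. On day 6 they had 40.3 and 32.9 against 29.6 and 25.6. Both also stood above both double-mutant libraries on days 2 and 4, but not on day 6. The share of all genes with this order was not counted.

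The design asked whether DNMT3A1 mutants change expression during adipocyte differentiation, and W330R was first compared with WT over all 4 stages. Sp100, Sp110 and Sp140 rose, and Pml did not pass the test. Sp100 was higher by a log2 fold change of 2.999 ± 0.50 (SE, edgeR quasi-likelihood test, adjusted p = 0.0011). Sp110 was higher by 3.35 ± 0.72 (edgeR adjusted p = 0.0052) and Sp140 by 2.68 ± 0.18 (edgeR adjusted p = 6.3e-06). For Pml the difference was 0.35 ± 0.15 (edgeR adjusted p = 0.096). Of all genes tested, 11.2% were called higher in this comparison. Sp110 passed the filter on low counts through the W330R libraries, so that it had to differ under that filter. With no filter it was called as well (edgeR adjusted p = 0.0022).

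That average takes in the undifferentiated stage, where none of the 4 genes differed by the test. W330R minus WT was -1.23 ± 0.99 for Sp100, -1.77 ± 1.28 for Sp110, -0.07 ± 0.38 for Sp140 and -0.12 ± 0.29 for Pml, with unadjusted p from 0.19 to 0.92, and 1.77% of all genes were called. In a fit of these 4 libraries alone Sp100 was called lower, at -1.22 ± 0.35 (edgeR adjusted p = 0.016), and 4488 genes were called against 257. Between replicates, the mean chi-square per gene, a measure of spread against counting error, was 3.568 in undifferentiated WT and 3.125 in undifferentiated W330R. It was 33.64 to 120.5 in the conditions of days 2 to 6, so that fit rests on a far smaller spread. Limiting the average to days 2 to 6, a contrast added after the data were seen, gave larger differences. They were 4.41 ± 0.58 for Sp100, 5.05 ± 0.61 for Sp110 and 3.596 ± 0.20 for Sp140, and Pml passed at 0.51 ± 0.17 (edgeR adjusted p = 0.034). Of all genes, 14.3% were called higher.

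By day, Sp100, Sp110 and Sp140 were called on each of days 2, 4 and 6, where 1.89%, 2.75% and 2.3% of all genes were called higher, and Pml on none. Sp140 was higher by 3.10 ± 0.35, 3.81 ± 0.36 and 3.88 ± 0.35. Sp100 was higher by 4.005 ± 1.01, 5.33 ± 1.05 and 3.89 ± 0.97, and its adjusted p on day 2 was 0.049, a call lost in 18 of 22 fits with 1 library left out. With no filter the calls of Sp100 on days 2 and 6 were lost (edgeR adjusted p = 0.124 and 0.071). With a fit to the 4 libraries of the contrast alone, 8 of these 9 calls were lost, with adjusted p up to 0.158.

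The double mutant asks whether the R181E change alters what W330R does. Averaged over days 2 to 6, Sp100, Sp110 and Sp140 were lower in W330R-R181E than in W330R. The log2 fold changes were -4.02 ± 0.58 for Sp100 (edgeR adjusted p = 4.0e-04), -4.21 ± 0.58 for Sp110 (edgeR adjusted p = 2.9e-04) and -3.84 ± 0.21 for Sp140 (edgeR adjusted p = 4.4e-07). Pml was at -0.38 ± 0.17 (edgeR adjusted p = 0.15), and without double-mutant day 6 replicate 1 it was at -0.62 and passed (edgeR adjusted p = 0.0058). Of all genes, 9.36% were called lower. Sp110 entered this comparison through the W330R libraries too, and with no filter it was called (edgeR adjusted p = 2.3e-05).

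On day 6 alone, Sp140 was called lower, at -2.98 ± 0.34, whereas Sp100 at -1.72 ± 0.85 and Sp110 at -2.22 ± 0.80 did not pass, against 0.93% of all genes called lower. On day 2 Sp100 and Sp140 were called and Sp110 was not (edgeR adjusted p = 0.058, or 0.039 with no filter), and on day 4 all 3 were called. The shares of all genes called lower were 1.69% on day 2 and 1.34% on day 4. With no filter the calls of Sp100 on days 2 and 4 were lost (edgeR adjusted p = 0.072 and 0.059). With only the 4 libraries of each contrast, all 6 calls of these days were lost.

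Against WT, none of the 4 genes was called in the double mutant over days 2 to 6, where 9.56% of all genes were. The differences were 0.38 ± 0.63 for Sp100, 0.84 ± 0.97 for Sp110, -0.25 ± 0.21 for Sp140 and 0.14 ± 0.17 for Pml, with unadjusted p from 0.32 to 0.55. Bounds of 2 SE ran from -0.87 to 1.64 for Sp100, from -1.09 to 2.78 for Sp110, from -0.67 to 0.18 for Sp140 and from -0.20 to 0.48 for Pml. Without day 6 replicate 1 the value for Sp100 was -0.87, that for Sp110 -0.06 and that for Pml -0.11. On single days none of the 4 was called either, where edgeR called 0% of all genes on days 2 and 4 (1297 and 1638 genes at an unadjusted p under 0.05, and 110 and 160 called by DESeq2) and 0.916% on day 6. The comparisons with W330R and with WT share the double-mutant libraries.

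**Figure D2:**
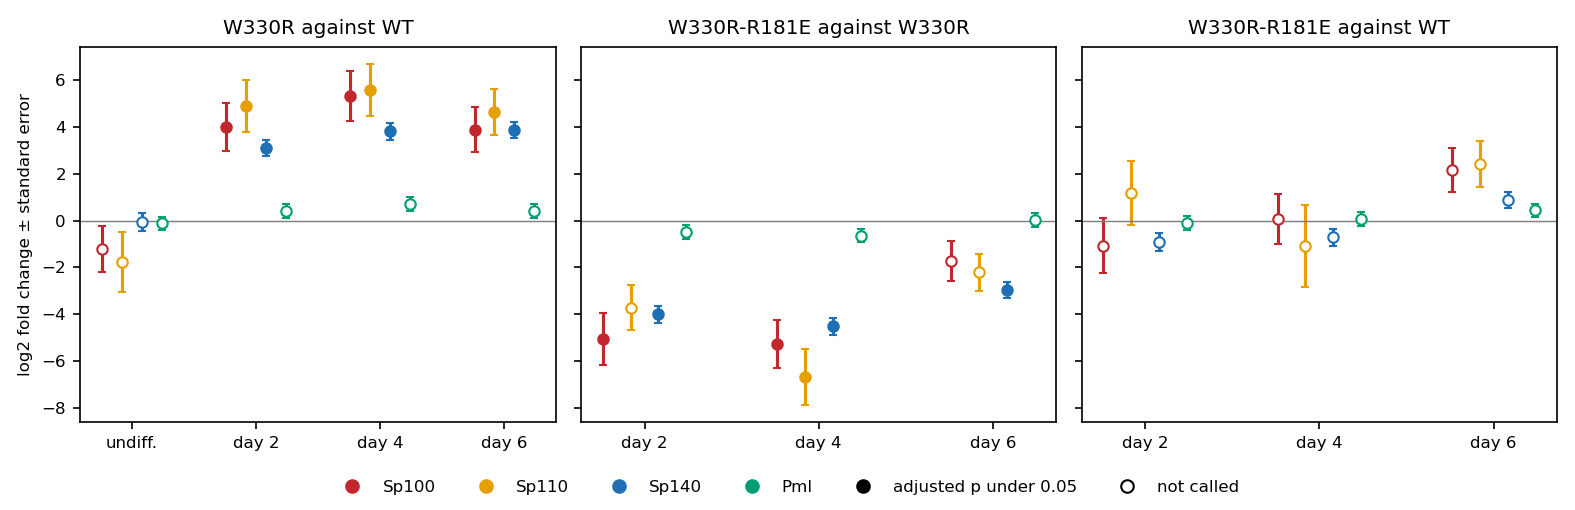
Log2 fold change with its standard error for Sp100, Sp110, Sp140 and Pml at each stage, filled where the adjusted p was under 0.05. W330R against WT is near 0 or below for undifferentiated cells and above 3 for Sp100, Sp110 and Sp140 on days 2 to 6, while the double mutant against WT has no filled point.

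Over time, these transcripts were higher in W330R on day 2 than at the undifferentiated stage, a step that cannot be told apart from a separate batch. Sp100 rose by 3.31 ± 0.99 (edgeR adjusted p = 0.013), Sp110 by 4.33 ± 1.12 (edgeR adjusted p = 0.0057) and Sp140 by 2.84 ± 0.36 (edgeR adjusted p = 2.5e-05), with 25.1% of all genes called higher. The call of Sp100 was lost without either undifferentiated W330R library or without W330R day 2 replicate 1 (edgeR adjusted p up to 0.082), and that of Sp110 without undifferentiated W330R replicate 1 (edgeR adjusted p = 0.059). In WT the same step was -1.92 ± 0.999 for Sp100, -2.35 ± 1.24 for Sp110 and -0.33 ± 0.37 for Sp140, none called. Sp100 was called lower in WT with only the conditions of the contrast (edgeR adjusted p = 0.024) and without either double-mutant day 6 library (0.031 and 0.032), and Sp110 without WT day 2 replicate 1, which left 0 counts on day 2 (edgeR adjusted p = 0.048). Pml fell in both, at -0.88 ± 0.29 in W330R, where 23.0% of all genes were called lower, and at -1.4003 ± 0.30 in WT, where 24.4% were. Its call in W330R was lost without any 1 of the 4 libraries compared (edgeR adjusted p up to 0.108). The difference between the genotypes in this step passed for Sp140, at 3.17 ± 0.51 (edgeR adjusted p = 0.0061), where 1.21% of all genes were called higher. It was 5.23 ± 1.402 for Sp100 (edgeR adjusted p = 0.079) and 6.68 ± 1.68 for Sp110 (edgeR adjusted p = 0.061). Both passed with DESeq2 (adjusted p = 0.0047 for Sp100 and 0.019 for Sp110), with the replicate block (0.034 and 0.021) and without either double-mutant day 6 library (0.017 for Sp100 and 0.035 for Sp110). Sp100 also passed with only the conditions of the contrast (edgeR adjusted p = 0.019), and Sp110 with no filter (0.038) and without WT day 2 replicate 1 (0.047). Without undifferentiated W330R replicate 1 the value for Sp140 was 2.99 (edgeR adjusted p = 0.051).

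From day 2 to day 6 within W330R, Sp140 rose by 0.997 ± 0.31 (edgeR adjusted p = 0.030), with 13.6% of all genes called higher. The call was lost with no filter (edgeR adjusted p = 0.068) and without any 1 of the 4 libraries compared (edgeR adjusted p from 0.054 to 0.204). Csprs stood at -0.05 ± 0.81 and Sp100 at 0.50 ± 0.83, neither called. In the double mutant Sp100, Sp140 and Pml were called higher on day 6, with 12.8% of all genes called higher. The values were 3.85 ± 1.08 for Sp100, 2.04 ± 0.38 for Sp140 and 1.18 ± 0.30 for Pml. Without day 6 replicate 1, Sp140 was called at 1.85 (edgeR adjusted p = 0.026), while Sp100 at 0.09 and Pml at 0.45 were not. Each call was lost under another setting, Sp100 with no filter (edgeR adjusted p = 0.058) and without either day 2 library of the double mutant (0.078 and 0.131), and Sp140 and Pml with only the conditions of the contrast (0.133 and 0.200). Pml was also lost without double-mutant day 2 replicate 1 (edgeR adjusted p = 0.059). Csprs was called higher in the double mutant too, at 4.20 ± 1.25 (edgeR adjusted p = 0.027). Since Csprs was chosen for counts near 0 outside W330R, that call is a description. This rests on day 6 replicate 1, with 135 counts against 3 in replicate 2, and without that library the value was 1.67. The call was lost with no filter (edgeR adjusted p = 0.066). None of Sp100, Sp110, Sp140 and Pml was called in WT between these days, where 26.5% of all genes were. Csprs was not called in WT either, but with 1 to 5 counts on these days its test there cannot decide.

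Genes annotated near Sp100 on chromosome 1 and near Csprs on a separate scaffold were then listed. Some were named beforehand with no limit of distance, and every other gene annotated within 500 kb of Sp100 or Csprs was added. Of 55 listed neighbours, 37 were in the table, 26 had at least 10 counts in at least 2 libraries and 24 passed the filter. Averaged over days 2 to 6, 13 of the 24 were higher in W330R than in WT and 2 were lower, with a median log2 fold change of 0.58 against 0.02 over all genes, of which 14.3% were higher and 14.7% lower. Genes that passed the filter only through W330R libraries had to differ, so these counts are a description. Between Gm15433 and Sp100 in annotation order stood 13 genes with enough counts, 3 of them Sp110, Sp140 and Sp100. Of these 13, 11 were called higher, and Gm6264 and Gm2427, both annotated as pseudogenes, were not.

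The copies had few counts elsewhere. Gm7609, a transcribed pseudogene, ranged from 1.79 to 10.1 CPM in W330R on days 2 to 6 and from 0 to 2.44 CPM in the other 16 libraries. Gm15433 ranged from 1.11 to 4.01 CPM against 0 to 0.651, C130026I21Rik from 1.33 to 3.24 against 0 to 0.572, and A530032D15Rik from 0.914 to 2.06 against 0 to 0.289. Gm2619 ranged from 0.657 to 2.80 CPM against 0 to 0.697, and Gm7592 from 1.04 to 1.78 against 0 to 0.465. Gm16026 ranged from 0.222 to 1.83 CPM against 0 to 0.0984, and Gm2666 from 0.0821 to 0.636 against 0 to 0.0881. The ranges met for Gm7609, Gm2619 and Gm2666.

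Outside the array, values were mixed. Trip12, a ubiquitin ligase gene, was at -0.06 ± 0.08, Fbxo36 at -0.11 ± 0.10, Psmd1, a proteasome subunit gene, at -0.29 ± 0.11 and Ncl, the nucleolin gene, at -0.21 ± 0.09, none called. Pid1 rose by 0.73 ± 0.16, Itm2c by 0.44 ± 0.11, Armc9 by 0.55 ± 0.11 and A630001G21Rik by 1.65 ± 0.42. Slc16a14 fell, at -1.97 ± 0.51, and Cab39 fell, at -0.35 ± 0.12. Dner at -0.34 ± 0.65 and Gm18180 at 0.10 ± 0.23 were not called, and 4933407L21Rik and Gm21972 did not pass the filter. On the scaffold of Csprs, AC132444.1 was called at 3.41 ± 1.09 from at most 0.799 CPM, and AC132444.6 was not, at 0.44 ± 0.33.

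**Figure D3:**
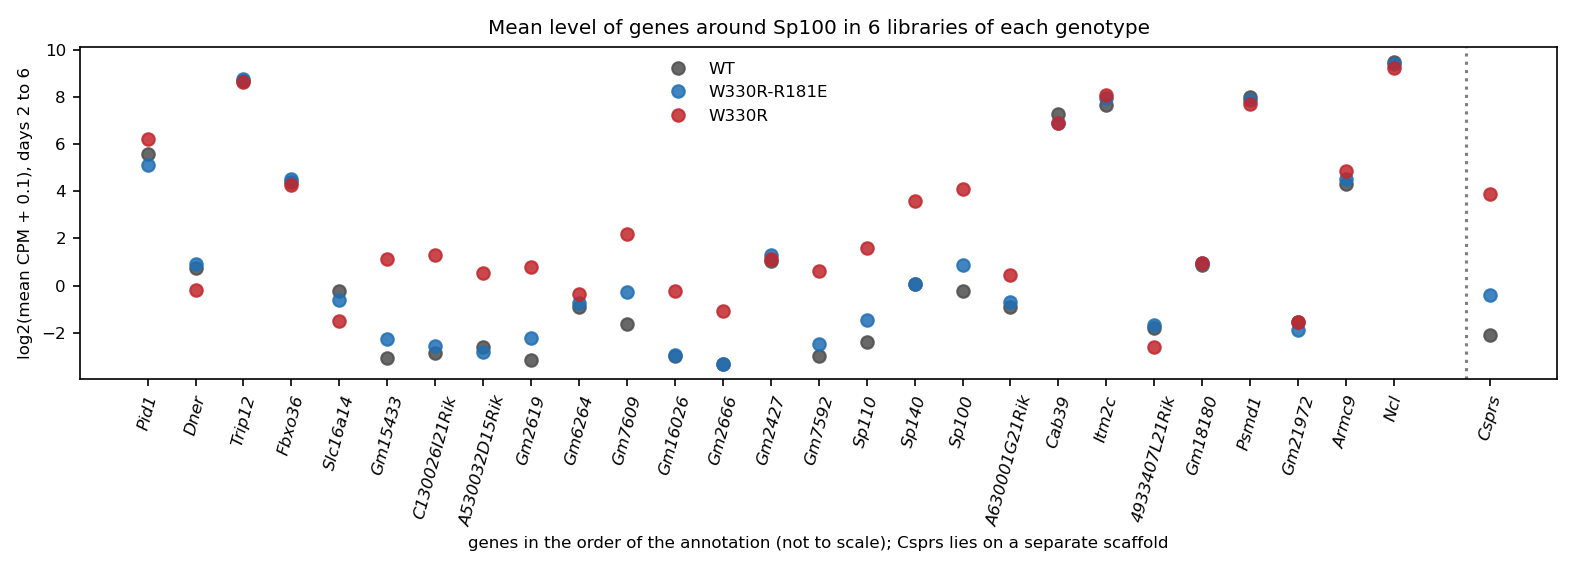
Mean level, as log2(mean CPM + 0.1), of genes around Sp100 in the 6 libraries of each genotype on days 2 to 6, in annotation order and not to scale, with Csprs set apart. W330R (red) stands above WT and the double mutant at most genes from Gm15433 to Sp100, and the genotypes lie together at Trip12, Fbxo36, Psmd1 and Ncl.

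Counts among these copies cannot be assigned with certainty. Of the 31-base words in the transcripts of Sp140, 67.8% also occur in another gene. Arhgef12 holds 26.9% of the Sp140 words, counted whether or not other genes hold them too. For Sp110 the share found in another gene was 55.5%. It was 9.20% for Sp100 and 2.58% for Pml, but 94.4% for Gm15433 and 84.8% for Gm7592. The transcript sequence of Csprs was not analysed here. Arhgef12 lay between 115 and 170 CPM in W330R on days 2 to 6 and between 131 and 160 CPM in WT, and these ranges overlapped.

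The starts of the copies were alike in sequence. RefSeq windows (GRCm38.p6, 250 bases before to 50 after the start) were found for 4 of the 5 members, and the following are shown because Gm7609 and A530032D15Rik copy the starts of Sp100 and Sp140, with Sp110 and Pml for comparison. Capitals mark CpG, the dinucleotide that DNMT3A methylates.
Sp100 (chr1:85649738-85650037, + strand): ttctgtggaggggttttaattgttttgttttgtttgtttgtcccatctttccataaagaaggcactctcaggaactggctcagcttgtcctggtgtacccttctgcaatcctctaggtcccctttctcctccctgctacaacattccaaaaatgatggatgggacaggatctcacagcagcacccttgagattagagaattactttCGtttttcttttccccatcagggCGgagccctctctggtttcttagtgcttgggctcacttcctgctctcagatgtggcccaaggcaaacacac
Gm7609 (chr1:85199361-85199660, + strand): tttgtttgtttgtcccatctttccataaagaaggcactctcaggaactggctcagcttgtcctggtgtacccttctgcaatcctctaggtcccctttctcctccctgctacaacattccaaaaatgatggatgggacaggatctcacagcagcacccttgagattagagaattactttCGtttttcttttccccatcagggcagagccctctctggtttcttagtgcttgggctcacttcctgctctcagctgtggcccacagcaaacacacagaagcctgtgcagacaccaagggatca
Sp140 (chr1:85600453-85600752, + strand): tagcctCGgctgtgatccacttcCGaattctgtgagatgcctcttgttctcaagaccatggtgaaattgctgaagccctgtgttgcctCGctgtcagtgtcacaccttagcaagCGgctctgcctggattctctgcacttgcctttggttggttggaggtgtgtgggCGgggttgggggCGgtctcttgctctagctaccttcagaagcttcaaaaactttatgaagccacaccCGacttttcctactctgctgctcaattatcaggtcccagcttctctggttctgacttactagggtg
A530032D15Rik (chr1:85109804-85110103, - strand): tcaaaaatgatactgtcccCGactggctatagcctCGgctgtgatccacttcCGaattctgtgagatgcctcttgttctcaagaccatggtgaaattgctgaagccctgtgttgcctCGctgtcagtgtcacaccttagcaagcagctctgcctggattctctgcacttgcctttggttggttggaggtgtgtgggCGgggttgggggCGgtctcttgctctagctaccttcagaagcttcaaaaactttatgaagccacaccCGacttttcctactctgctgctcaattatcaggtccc
Sp110 (chr1:85598761-85599060, - strand): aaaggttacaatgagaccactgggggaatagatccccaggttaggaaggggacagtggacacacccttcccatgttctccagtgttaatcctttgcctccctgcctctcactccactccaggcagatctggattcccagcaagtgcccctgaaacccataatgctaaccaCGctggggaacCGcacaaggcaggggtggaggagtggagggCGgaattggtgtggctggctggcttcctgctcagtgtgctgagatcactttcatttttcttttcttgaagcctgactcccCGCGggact
Pml (chr9:58249737-58250036, - strand): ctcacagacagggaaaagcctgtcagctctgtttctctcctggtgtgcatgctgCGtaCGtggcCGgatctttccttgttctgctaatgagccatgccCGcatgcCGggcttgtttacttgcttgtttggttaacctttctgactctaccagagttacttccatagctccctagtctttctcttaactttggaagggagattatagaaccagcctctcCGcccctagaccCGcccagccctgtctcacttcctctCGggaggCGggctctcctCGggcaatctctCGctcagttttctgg

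Sp100 and Gm7609 were identical at 98.53% of 272 aligned bases, and Sp140 and A530032D15Rik at 99.63% of 271. Sp100 and Sp110 each have 2 annotated starts, and only 1 window of each was used. The windows hold 2 CpGs in Sp100, 1 in Gm7609, 5 in Sp110, 7 in Sp140 and A530032D15Rik and 11 in Pml, against a median of 7 over 32851 windows. Methylation was not measured in these libraries. The core of the interferon response motif, GAAA, any 2 bases and GAAA, was searched on both strands and was in none of them, and it is in 3.44% of all windows. The same blocks with 3 bases between them, searched after the sequences were seen, were in Sp100, Gm7609 and Sp110, and in 2.75% of all windows. TTCNNNGAA, the core bound by STAT proteins, was in none and is in 8.3% of all windows.

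Interferon-stimulated genes moved in the same libraries, and their part in the result was not tested. Of a list of 52 such genes other than the members, 48 were tested. Over the 4 stages 34 were higher in W330R than in WT, with a median log2 fold change of 1.5 against 0.01 over all genes, of which 11.2% were higher. Oas2, which senses double-stranded RNA, was at 5.50 ± 1.73, Cmpk2, a nucleotide kinase, at 5.38 ± 1.78 and Oasl2 at 4.52 ± 0.99. In the double mutant against W330R 16 were lower, beside 9.36% of all genes, median -1.09, with Oas2 at -4.82 ± 1.24, Trim30a at -4.12 ± 0.67 and Oas1a at -3.80 ± 0.95. Against WT 2 were higher in the double mutant, beside 4.44% of all genes, Bst2 at 2.29 ± 0.61 and Tap1 at 0.76 ± 0.22.

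The summed level of the 50 listed genes in the table separated the replicates. In W330R it was 2105 and 971 CPM on day 2, 3462 and 1285 on day 4, and 2118 and 1443 on day 6. WT lay between 539 and 1330 CPM on these days, so replicate 2 of W330R was within this range on days 2 and 4 and above it on day 6, and on each day above both WT libraries of the same day, while its Csprs was at 7.08 to 8.003 CPM. Double-mutant day 6 replicate 1 had the highest sum, 6330 CPM, and 3.14 CPM of Csprs, below all 6 W330R libraries, but its Sp100 (8.07 CPM) was within the W330R range and its Pml (51.1 CPM) was the highest of all 22 libraries. Over the 6 mutant conditions of days 2 to 6, the library with the higher interferon sum had the higher Sp100 in 6, the higher Csprs, Sp110 and Pml in 5 and the higher Sp140 in 4. Over all 11 conditions it had the higher Csprs and Sp100 in 9 and the higher Sp110, Sp140 and Pml in 6. Without day 6 replicate 1 the double mutant lay between 639 and 1209 CPM.

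**Figure D4:**
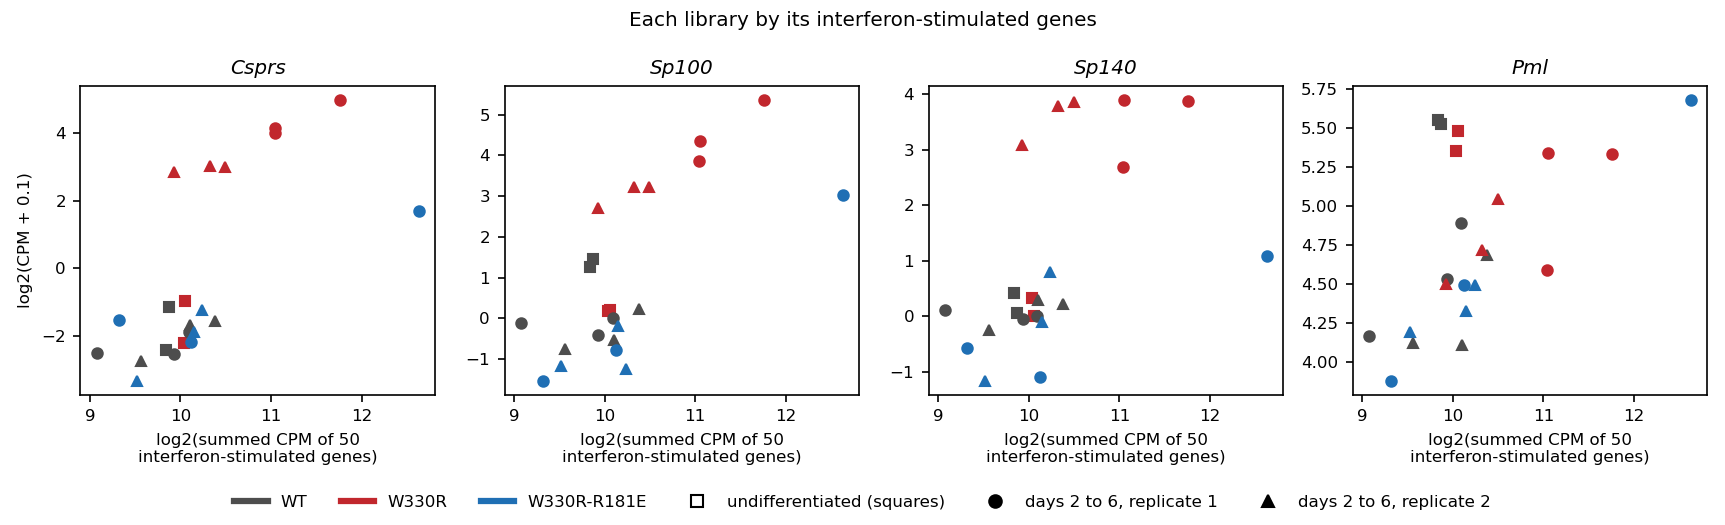
Level of Csprs, Sp100, Sp140 and Pml as log2(CPM + 0.1) against the log2 summed CPM of 50 interferon-stimulated genes, 1 point a library. W330R replicate 2 libraries (red triangles) have interferon sums within the WT range or just above it, and high Csprs, Sp100 and Sp140, and double-mutant day 6 replicate 1 (blue circle at the right) has the highest sum, with Csprs and Sp140 below the W330R points of days 2 to 6, Sp100 among them and Pml above them.

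Of 36 listed genes for nuclear body proteins, SUMO and chaperones of histone H3.3, 34 were tested. In W330R against WT over the 4 stages 3 were higher, among them Trp53 (the p53 gene) at 0.34 ± 0.07 and Cabin1 at 0.28 ± 0.07. Hipk2, a kinase of the body, was lower at -0.51 ± 0.11, and Rnf4, a ubiquitin ligase for SUMO-carrying proteins, at -0.27 ± 0.08. The median was 0.02, against 0.01 over all genes, and 11.2% of all genes were higher and 11.8% lower, so that 3 and 2 of 34 were not above the background. In the double mutant against W330R 1 gene was called higher, H3f3a, at 0.36 ± 0.09, where 7.86% of all genes were, and against WT, where 4.44% of all genes were higher and 5.12% lower, Cabin1 and Trp53 were higher and Hipk2 and Rnf4 lower.

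The genes most like Csprs over the 22 libraries, by Pearson's r of log2 CPM and as a description, were Gm15433 (0.969), Gm2619 (0.965), Gm7592 (0.950), Sp140 (0.938) and Sp110 (0.938). Those most like Sp100 were Oas1a (0.955), Gm15433 (0.952), Sp110 (0.947), Csprs (0.930) and Tcirg1 (0.929). Copies share sequence and all points share libraries. By Spearman's rho, 0 of the 5 for Csprs and 2 of the 5 for Sp100 were among the top 5.

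Markers of the labelled cell type were found. All 10 mesenchymal markers were present, with sums of 3144 to 24679 CPM, and the 10 adipocyte markers summed to 52.1 to 59.8 CPM undifferentiated. On days 2 to 6 the adipocyte sum was 2862 to 9796 CPM in WT, 1547 to 2455 in W330R and 1937 to 4344 in the double mutant, and its part in the levels above was not tested. Of 12 markers of blood and immune cells 11 were in the table, with sums of 10.0 to 21.1 CPM in W330R on days 2 to 6 and 12.01 to 16.6 in WT and 11.4 to 22.6 in the double mutant. Cd14, at 25 to 488 counts, and Cd68, at 20 to 326 counts, were present in every library. Nkg7 was at 0 in every library, Cd3e had at most 1 count and Ptprc at most 16. Fewer cells with a transcript and less transcript per cell cannot be told apart in such bulk RNA. Dnmt3a lay between 68.5 and 347 CPM, and whether its counts include the introduced forms is not given in the sources used here.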

How the data were processed

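The authors deposited whole-number read counts per gene symbol for 22 libraries, without normalization. Libraries were made from total RNA. The submitters' processing notes name kallisto, DESeq2 1.40 and GRCm39, with no role given, and use of strand is not given in the sources used here. From the deposited counts, edgeR 4.0.16 in R 4.3.3 kept 14520 genes (filterByExpr, minimum count 10, minimum total 15), scaled libraries by TMM and fitted 1 quasi-likelihood model with a mean per condition and 22 contrasts. Calls were made at an adjusted p under 0.05 (Benjamini-Hochberg, over all genes tested). The standard error is the log2 fold change divided by the square root of F. All 5 members passed the filter, Csprs and Sp110 through the W330R libraries. CPM use the TMM-scaled totals. A limit of 3 counts covers counting error only.

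Members, lists and contrasts were chosen with earlier results of these data known. Named genes were the members, up to 3 called genes per list and direction by size of change, and neighbours with at least 10 counts in 2 libraries. A few listed genes are not reported here by name. Armc7, listed as a neighbour, is annotated on chromosome 11 and was left out. Gene order and shared words came from GENCODE M21, and promoter windows from RefSeq (GRCm38.p6), an older build than that of the notes. Alternatives were DESeq2 1.42.0, RLE scaling, no filter, only the conditions of the contrast, a replicate block and each library left out. The code was tested on simulated data.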

Additional observations from a re-analysis of the deposited data

Results flagged for a closer look

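The double-mutant library W330R-R181E day 6 replicate 1 stood far from the other 5 double-mutant libraries of days 2 to 6. It had 3.14 CPM of Csprs, 8.07 of Sp100, 1.16 of Sp110 and 51.1 of Pml, and a summed interferon-stimulated level of 6330 CPM. Its gap to the nearest library exceeded Dixon's 95% critical value for 6 samples in each case. For Csprs that is a description only, because the choice of Csprs held its counts low in the double mutant. In all, 18 groups were checked and 5 were flagged, all in this library and with the Csprs group among them. Chance flags about 1 in 20 groups, a rate that cannot be applied to Csprs. The 5 measures come from 1 library and are not independent. Sp140 was not flagged there, since both day 6 libraries of the double mutant were raised, at 2.02 and 1.62 CPM.

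The effect of W330R on Sp140 differed by the test between the undifferentiated stage and day 2, a step that cannot be told apart from a separate batch. Without undifferentiated W330R replicate 1 the value below was 2.99. W330R minus WT on day 2 exceeded that in undifferentiated cells by 3.17 ± 0.51 on the log2 scale (edgeR adjusted p = 0.0061).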

How the results depend on the processing

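Sp100, Sp110 and Sp140 kept their direction and their call in W330R against WT over 4 stages and in the double mutant against W330R over days 2 to 6 under every alternative. With 1 library left out, W330R minus WT ranged from 2.65 to 3.18 for Sp100, 3.04 to 4.22 for Sp110 and 2.62 to 2.73 for Sp140. Pml over 4 stages passed with the replicate block (0.35, edgeR adjusted p = 0.049), with only the conditions of the contrast (0.34, edgeR adjusted p = 0.027) and on days 2 to 6 only (0.51), and ranged from 0.28 to 0.43 with 1 library left out. It also passed without either double-mutant day 6 library. In the double mutant against W330R, Pml ranged from -0.62 to -0.22. In the double mutant against WT, values ranged from -0.87 to 0.67 for Sp100, -0.057 to 2.01 for Sp110 and -0.11 to 0.29 for Pml.

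With only the second mutant libraries of days 2 to 6, an alternative added after the data were seen, the double mutant minus WT was -0.71 for Sp100, -0.67 for Sp110 and -0.082 for Pml, none called. Genes called were then 1884 for W330R against WT (3332 with all libraries), 605 for the double mutant against W330R (2500) and 105 for the double mutant against WT (1388). The last count was 2272 with DESeq2, 2333 with the replicate block and 163 with only the conditions of the contrast. With 1 library left out it ranged from 490 to 2075, and that of the double mutant against W330R from 1583 (without W330R day 6 replicate 1) to 2557.

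Deviations of same-numbered libraries from the condition mean correlated above 0.1 in 27 of 55 pairs of conditions (-0.066 to 0.534). All 27 were among the 36 pairs of days 2 to 6 (mean 0.215), so same-numbered libraries shared deviations on these days. The main model has no replicate block, and the block was run as an alternative. Under the replicate block, Sp110 in the double mutant against W330R on day 2 passed (edgeR adjusted p = 0.022), and Pml in the double mutant against W330R on day 6 was -0.014. Pml in W330R minus WT, day 6 minus day 2, was -0.00083 with no filter. The cause was not tested. By day and with 1 library left out, values near 0 changed sign. Ranges were -0.27 to 0.12 for Sp140 in undifferentiated W330R against WT and -0.71 to 0.48 for Pml in the double mutant against W330R on day 6. Against WT the double mutant ranged from -0.021 to 4.69 for Sp110 and -0.26 to 0.05 for Pml on day 2, from -0.33 to 0.35 for Sp100 and -0.090 to 0.31 for Pml on day 4, and on day 6 from -1.59 to 3.02 for Sp100, -0.27 to 3.08 for Sp110 and -0.30 to 0.89 for Pml. Day 6 minus day 2 ranged from -0.18 to 4.51 for Sp110 in WT, -0.62 to 0.76 for Csprs and -0.14 to 1.19 for Sp100 in W330R, and -0.44 to 3.11 for Sp110 in the double mutant. For that step, W330R minus WT ranged from -0.75 to 0.58 for Sp100, -3.76 to 0.92 for Sp110 and -0.11 to 0.17 for Pml, and the double mutant minus WT from -0.52 to 4.08 for Sp100, -2.25 to 2.48 for Sp110 and -0.20 to 0.98 for Pml. With at most 9 counts in every library outside W330R but double-mutant day 6 replicate 1, depth limits Csprs and Sp110 there.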
